A study of Mus musculus with 28 samples.

Results

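H3K27me3, the trimethylation of lysine 27 on histone H3, was mapped by ChIP-seq in mouse mesoderm cultures with normal Brg1 and in cultures from which Brg1 had been deleted. Covered length was lower without Brg1 in all 3 pairs of lists. Among domains merged over the 6 lists, those under 1 kb lost the largest share of their own bases. Wide domains such as the Hox clusters kept most of their covered bases, Sox2 lost most of them, and Cdh11 gained. The lists were chosen by their sample labels, as 3 H3K27me3 control lists and 3 H3K27me3 4-OHT lists, each pair sharing a replicate number. They belong to 6 of the 28 samples of the series and are 6 of its 17 lists of enriched regions.

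H3K27me3 is written by Polycomb repressive complex 2 (PRC2), of which Suz12 is a core subunit, and it covers the promoters of silent developmental regulators, in mouse embryonic stem cells often over whole gene clusters. Acetylation of the same lysine (H3K27ac) marks active promoters and enhancers, and a given lysine cannot carry both marks. Brg1 (Smarca4) is the ATPase of BAF chromatin remodelling complexes, which move nucleosomes and are known both to activate genes and to counter Polycomb repression.

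The study followed cardiac differentiation of embryonic stem cells and asked what Brg1 does at the mesoderm stage. Stem cells of the line Brg1f/f; Actin-CreER formed embryoid bodies in serum-free medium until day 2, and were then dissociated and reaggregated for 40 h with VEGF, Activin A and BMP4, which gave the day 4 cultures. From day 2 the cultures received 200 nM 4-hydroxytamoxifen (4-OHT) in tetrahydrofuran (THF), which activates CreER, or THF alone. Besides H3K27me3, the series holds ChIP-seq of Suz12, H3K27ac and FLAG-tagged Brg1 at day 4, and input chromatin. The FLAG samples carry the same cell line label and normal Brg1, whereas the paper describes another line of stem cells for them, with a 3×-FLAG tag joined to Brg1 at its own locus.

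The control group here is H3K27me3 in THF-treated cultures at day 4 with normal Brg1, in 3 biological replicates. The Brg1-deleted group is H3K27me3 in 4-OHT-treated cultures at day 4, also in 3 replicates. Both groups carry the floxed Brg1 alleles and the Actin-CreER transgene, which is expressed constitutively, and both come from the same cell line. Brg1 protein disappears gradually after 4-OHT, so the cells had Brg1 for part of the interval, and lists of enriched regions cannot show the deletion itself. The series has 2 inputs for each condition, and the labels do not say which input served which list.

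The labels call these cells differentiated embryonic stem cells at a mesoderm stage, and promoter marks were read against marker genes. H3K27ac lay at the promoter (within 2.5 kb of the transcription start site, TSS) in both control lists for 14 of 17 mesoderm markers, among them T, Mesp1, Mixl1, Eomes, Pdgfra, Tbx6 and Msgn1, but not Kdr, the VEGF receptor of early mesoderm. The same held for 6 of 11 pluripotency markers, including Pou5f1 and Nanog, with Esrrb, Tcl1 and Prdm14 lacking it. It held for 4 of 10 endoderm markers, 3 of 11 neural markers and 3 of 14 sarcomere genes. H3K27me3 lay at the promoter in at least 2 of 3 control lists for 9 mesoderm, 5 pluripotency, 7 endoderm, 9 neural and 0 sarcomere genes, beside 2947 of all 22367 genes. Among all genes H3K27ac lay at 47.2% and 46.6% of promoters in the 2 control lists. Of the pluripotency promoters with H3K27ac, those of Sox2, Klf2, Klf4 and Tbx3 also had H3K27me3 in all 3 control lists. The part of pluripotency markers in the results was not tested.

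Each list gives the chromosome, start and end of regions that the authors called over input in that sample, without read counts or scores. Read depth is therefore unknown, no interval from counts can be given, and the number and covered length of regions stand in for it. The control lists held 16959, 8798 and 8977 regions in replicates 1, 2 and 3, and the 4-OHT lists held 10394, 7872 and 6787. The regions covered 8.38, 11.0 and 10.0 Mb in control and 4.74, 8.99 and 7.62 Mb after 4-OHT. Each 4-OHT list was thus shorter than the control list of its number, but control replicate 1 was below 4-OHT replicate 2 in covered length, so the groups overlapped. Among the 6 lists, 15 pairs were compared and 0 were identical.

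Replicate 1 stood apart in both conditions. Of its regions, 69.0% in control and 70.1% after 4-OHT were under 500 bp wide, against 52.5% to 55.9% in the other lists. It had 0 regions of 10 kb or wider, whereas control replicates 2 and 3 had 118 and 91 and the 4-OHT replicates 69 and 50. Its widest region was 9.3 kb in control and 7.55 kb after 4-OHT, against 33.4 to 94.7 kb in the other lists. CpG-rich sequence (at least 60 CpG per kb) held 2.35% and 2.16% of its bases, against 14.7% to 16.7% in replicates 2 and 3. Wide domains appeared in it as strings of short regions, with a dip over the TSS that replicates 2 and 3 showed far less. Some results are also given without it, and the others include it.

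The first comparison asks how much of the H3K27me3 landscape was called after Brg1 deletion. After 4-OHT 56.5% of the paired control's covered length was left in replicate 1, 81.7% in replicate 2 and 76.0% in replicate 3, a mean of 71.4% ± 13.2 (SD, n = 3 pairs). All 3 pairs were lower, by a log2 ratio of -0.82, -0.29 and -0.40. The mean log2 ratio was -0.50 ± 0.28 (SD), and the two-sided exact permutation test that flips the sign of each pair gave p = 0.25, the smallest value that 3 pairs allow. Without replicate 1 the mean log2 ratio was -0.34. The number of regions was also lower in every pair, with 61.3%, 89.5% and 75.6% left (mean log2 ratio -0.42 ± 0.27, exact p = 0.25, n = 3 pairs). Without replicate 1 this mean log2 ratio was -0.28. In these bulk cultures, fewer cells carrying the mark, less of the mark in each cell, and a shallower or less enriched library cannot be told apart.

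Regions called after 4-OHT lay mostly inside those of control. Of the 4-OHT bases, 90.3%, 93.0% and 93.2% lay in the control list of the same number, whereas 51.0%, 76.0% and 70.8% of the control bases lay in the 4-OHT list. Lost bases summed to 4.11, 2.64 and 2.93 Mb and gained bases to 0.461, 0.627 and 0.519 Mb. The difference of these sums is the difference in covered length. Median region width was 250, 425 and 350 bp in control, against 250, 425 and 400 bp after 4-OHT, so the median width was the same or larger.

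**Figure D1:**
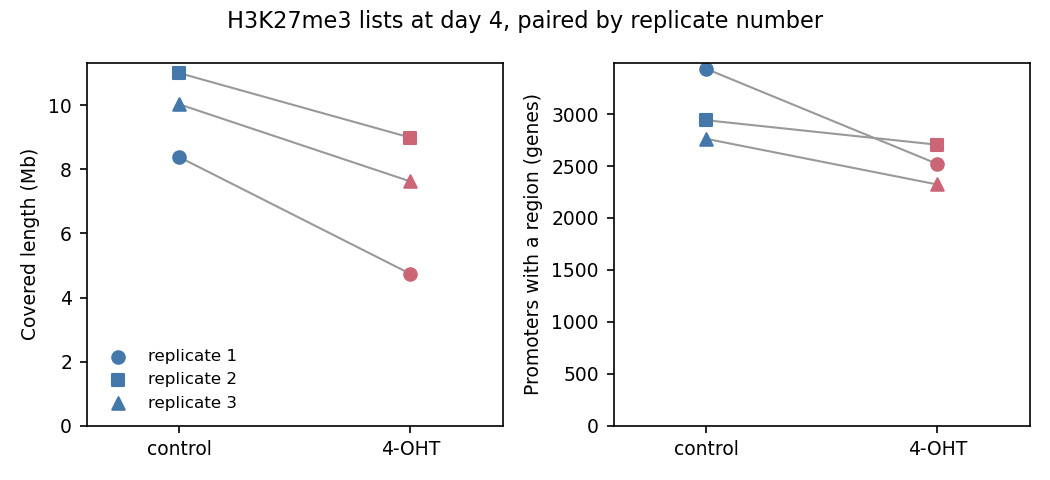
Covered length (left, Mb) and number of protein-coding genes with a region within 2.5 kb of the TSS (right) in the 6 H3K27me3 lists, each symbol a list and each line a replicate number. All 3 lines slope down from control to 4-OHT, most steeply in replicate 1, from 8.38 to 4.74 Mb.

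Across genes, H3K27me3 around the TSS was lower in mean in 2105 of 2235 tested windows (94.2%), and most of these windows kept part of their cover. Covered bases were counted within 5 kb on each side of the TSS of 22367 protein-coding genes, and the 2235 genes with a mean of at least 500 bp over the 6 lists were tested with limma, with replicate number as a block. Each gene was read at a single TSS, the outermost start of its annotated gene, so promoters farther than 5 kb inside a gene were not counted. The tested windows held on average 2146, 3315 and 3040 bp in control, against 1351, 2817 and 2403 bp after 4-OHT, which left 63.0%, 85.0% and 79.0%. In the median window 74.6% was left and the difference was -583 bp. H3K27me3 fell in 586 of the 2235 windows (26.2%) and rose in 3 (0.134%) at an adjusted p under 0.05. It was lower in all 3 pairs in 1538 windows (68.8%) and higher in all 3 pairs in 25 (1.12%). Fewer than 10% of the control bases were left in 27 windows, and at least 90% in 435. Of the 586, 119 had a mean under 500 bp after 4-OHT and so passed the filter through the control lists.

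These calls rested on all 3 pairs and on their pairing. Without replicate 1, limma called 0 windows lower and 0 higher (643 and 11 at an unadjusted p under 0.05), without replicate 2 it called 33 lower, without replicate 3 it called 1 lower, and with no replicate block it called 0 (209 lower and 2 higher unadjusted). Scaling every list to the same total, a shift of log2 0.50 in favour of 4-OHT, left 20 windows lower and 1 higher, all 20 among the 586, and turned the median difference to 38.1 bp. Of these 20, 11 had passed the filter through the control lists alone. After scaling 1046 windows were lower and 1189 higher in mean, and at an unadjusted p under 0.05 there were 234 lower and 280 higher, so by these counts higher windows outnumbered lower ones. The 3 pairs differed in which windows lost most: the differences correlated across the 2235 windows with r = 0.35 between replicates 1 and 2, 0.26 between 1 and 3 and 0.49 between 2 and 3.

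**Figure D2:**
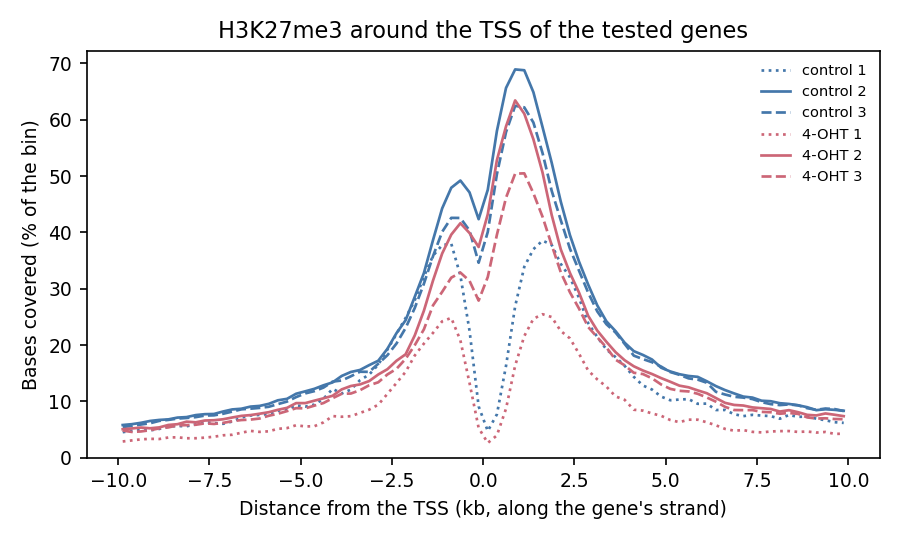
Share of bases covered by H3K27me3 regions (percent of each bin) by distance from the TSS (kb, along the gene's strand) over the 2235 tested genes, with a line for each list, control in blue and 4-OHT in red. Every 4-OHT line runs below the control line of its number at the peaks on both sides of the TSS, and replicate 1 of both conditions dips towards 0 at the TSS.

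The transcription factor genes Sox2, Tal2 and Tcf21 were among those that lost most H3K27me3. The 10 named here lost most bases among windows lower in all 3 pairs. Ccdc33, which encodes a coiled-coil protein (TSS at position 57966630 of chromosome 9, mm9), held 5450, 7279 and 5075 bp in control, against 800, 2175 and 300 bp after 4-OHT. Its 3 control values all lay above its 3 values after 4-OHT. H3K27me3 fell by 4843 bp (SE 302), leaving 18.4% (adjusted p = 6.08e-05, lower in 3 of 3 pairs). Sox2, a factor of pluripotent and neural progenitor cells (TSS 34548927, chromosome 3), held 2875, 5800 and 3250 bp in control, against 575, 2001 and 425 bp after 4-OHT. The groups did not overlap, and 25.2% was left (difference -2975 bp, SE 333, adjusted p = 0.00179). At the Sox2 promoter H3K27ac covered 1400 and 425 bp in the control lists and 2325 and 2400 bp in the 4-OHT lists.

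Tal2, a bHLH factor of midbrain neurons (TSS 53792577, chromosome 4), had 4149, 3825 and 2200 bp in control, against 1300, 750 and 0 bp after 4-OHT. All control values exceeded all values after 4-OHT, with 20.1% left (adjusted p = 0.00162). Tcf21, a bHLH factor of epicardial and other mesenchymal cells (TSS 22539934, chromosome 10), had 4892, 7767 and 7617 bp in control, against 2975, 5100 and 3825 bp after 4-OHT. Its groups overlapped, since control replicate 1 lay below 4-OHT replicate 2, although each pair was lower (58.7% left, adjusted p = 0.00464). Pth2, which encodes a neuropeptide of the parathyroid hormone family, held 2775, 6849 and 6124 bp in control, against 500, 3624 and 3199 bp after 4-OHT, with 46.5% left and an adjusted p of 0.0019. Each pair was lower and the groups overlapped. Fam110c, Tmem132c, Gm10083, 1200009I06Rik and A230065H16Rik completed the set, with 29.3%, 59.8%, 55.6%, 31.0% and 56.8% left and adjusted p-values up to 0.00627. The windows of 1200009I06Rik and A230065H16Rik are neighbours on chromosome 12.

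After scaling, Ccdc33, Sox2, Tal2, Fam110c and 1200009I06Rik were still called lower, and the other 5 of these genes were not (adjusted p 0.058 to 0.31). Igf2r, the imprinted receptor gene whose product clears Igf2, was also called after scaling, with 650, 1750 and 1625 bp in control, against 0, 50 and 0 bp after 4-OHT. Id2, an inhibitor of bHLH factors, held 2175, 3681 and 1575 bp in control, against 225, 150 and 0 bp after 4-OHT. Mbp, which encodes a myelin protein, held 3100, 3225 and 2125 bp against 700, 375 and 125 bp. In these 3 windows, picked for naming after their values were seen, every control list was above every 4-OHT list, and all 3 passed the filter of 500 bp through the control lists alone, so their calls support no loss.

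A small set of genes gained H3K27me3. Cdh11, a cadherin of mesenchymal cells, held 1625, 1675 and 1125 bp in control, against 2975, 5075 and 5950 bp after 4-OHT. All 3 values after 4-OHT were above all control values, and H3K27me3 rose by 3192 bp (SE 539, adjusted p = 0.00685, higher in 3 of 3 pairs). Suz12 covered 0 and 0 bp of the Cdh11 window in the control lists and 1000 and 3375 bp in the 4-OHT lists. H3K27ac at its promoter covered 2475 and 3525 bp in control, against 50 and 575 bp after 4-OHT. Cdh11 was the window called higher after scaling as well. Its call was lost with no replicate block and without replicate 1, 2 or 3, where 0 windows were called higher. The same held with only regions of at least 500 bp, regions within 1 kb joined, the log2 scale or no filter. Equal list size and windows of 2.5 and 10 kb called 4, 1 and 5 windows higher.

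Dock10, a guanine nucleotide exchange factor, had 1175, 1425 and 775 bp in control, against 2175, 2550 and 1625 bp after 4-OHT (adjusted p = 0.0194). Trim14, a TRIM protein of antiviral signalling, had 175, 325 and 325 bp in control, against 625, 1300 and 825 bp after 4-OHT (adjusted p = 0.0453). The Trim14 window passed the filter of 500 bp through the 4-OHT lists alone, so its call supports no rise. In both genes every list after 4-OHT was above every control list, and both missed the threshold after scaling (adjusted p 0.0594 and 0.0753). Nog, which encodes the BMP antagonist Noggin, had 375, 950 and 1225 bp in control, against 475, 2200 and 2325 bp after 4-OHT (adjusted p = 0.0527). The remaining 6 genes with the largest gains among windows higher in all 3 pairs did not pass the test. They were Ripply3, a corepressor of T-box factors, the adhesion genes Cdh2 and Pcdh8, the guidance receptor gene Nrp2, and Tmem90b with its neighbour on the other strand, C530025M09Rik, whose windows overlap (adjusted p 0.0862 to 0.232).

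**Figure D3:**
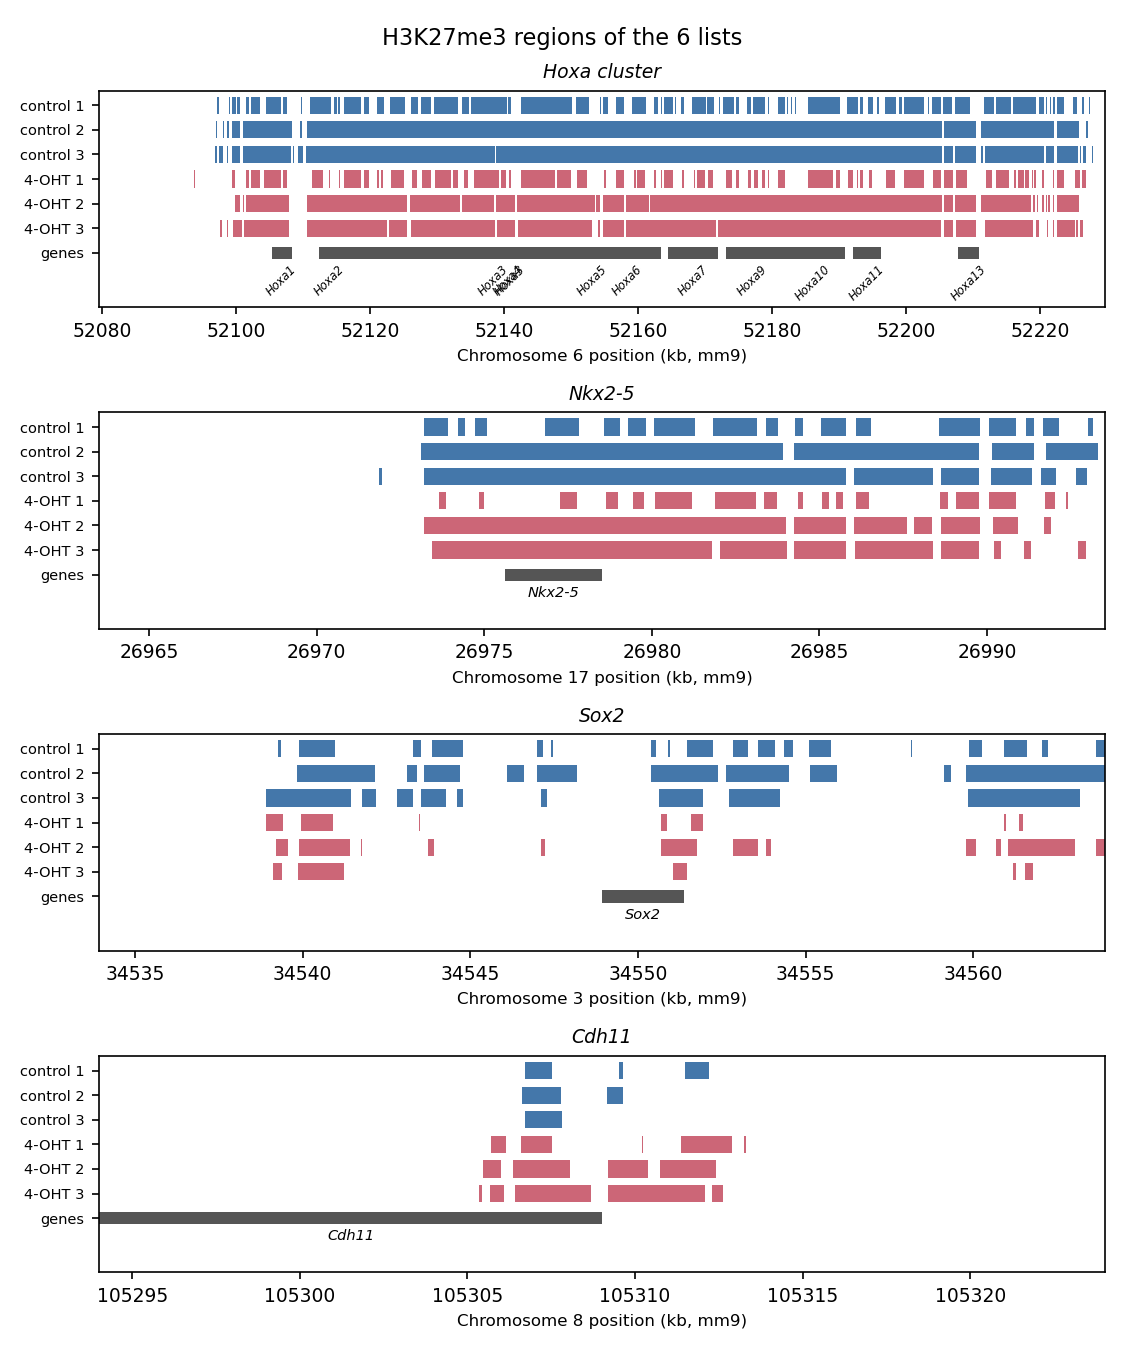
H3K27me3 regions of the 6 lists (bars, control in blue, 4-OHT in red) along the mm9 genome (kb) at the Hoxa cluster, Nkx2-5, Sox2 and Cdh11, with gene spans in grey. Regions stay in place at Hoxa and Nkx2-5, shrink at Sox2 and widen at Cdh11, and replicate 1 is broken into short pieces in both conditions.

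The study itself examined H3K27me3 at Irx1 and Nkx2-5, which encode homeodomain factors of heart and other tissues. From read density it reported clear reductions at upregulated genes that carry H3K27me3, and gave Irx1 and Nkx2-5 as examples. The lists hold called regions without reads, so the covered bases given here are another measure and cannot test that result. Irx1 (TSS 72101171, chromosome 13) had 4675, 7405 and 6975 bp in control, against 3125, 7125 and 5755 bp after 4-OHT. Each pair was lower and the groups overlapped, and the difference of -1017 bp (SE 368) missed the threshold (adjusted p = 0.0657), and after scaling it was 794 bp in the other direction. Nkx2-5 (TSS 26978510, chromosome 17) had 5600, 10000 and 10000 bp in control, against 4059, 10000 and 9775 bp after 4-OHT. Its whole window was covered in control replicates 2 and 3 and in 4-OHT replicate 2, so only replicate 1 showed more than a small difference (adjusted p = 0.229, 93.1% left). A fully covered window cannot show a gain, nor a loss of signal that leaves it covered.

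The text of the study names 13 genes from a larger set that was upregulated after Brg1 loss. The set was chosen on RNA of day 4 cultures treated in the same way, so these genes are no independent evidence of a direction. Of the 10 that were tested, H3K27me3 fell in 5 and rose in 0, against 26.2% falling over all tested genes, and 8 were lower in all 3 pairs, against 68.8% over all, while after scaling 4 lay below 0 and 6 above, against 1046 and 1189 over all. Sfrp1, a secreted Wnt antagonist, had 6000, 8050 and 7375 bp in control, against 3850, 5150 and 5275 bp after 4-OHT (adjusted p = 0.00464). The ligand gene Wnt4 had 425, 2525 and 2550 bp in control, against 0, 1675 and 525 bp after 4-OHT (adjusted p = 0.0312). In both genes all 3 pairs were lower, and at Sfrp1 the groups did not overlap. Tbx5, Wnt10a and Wnt9a were the other 3 (84.8%, 73.2% and 49.6% left). Wnt8a, Mef2b and Myocd had 0 bp in every list within 5 kb of the TSS read.

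The study's downregulated set was larger than the 6 genes that its text names. Of these 6, 4 were tested and 0 passed with limma in either direction (26.2% and 0.134% of all tested genes). They too were chosen on expression, and Pdgfra, lower by flow cytometry, just missed the study's RNA criteria. Kdr had 2075, 2700 and 3075 bp in control, against 450, 2575 and 2450 bp after 4-OHT (unadjusted p = 0.0363, adjusted 0.0905). Pdgfra, a receptor of paraxial and cardiac mesoderm, had 375, 2300 and 3600 bp in control, against 425, 2700 and 4210 bp after 4-OHT. The groups overlapped at both genes, with Kdr lower and Pdgfra higher in every pair. At an unadjusted p under 0.05 the list had 1 gene, Kdr, lower and 0 higher, beside 1012 lower and 7 higher windows of all 2235.

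Developmental regulators with wide domains kept most of their covered bases. The study reported many Hox genes as upregulated after Brg1 loss, and expression was not read here. All 39 Hox genes were covered in control and tested, and H3K27me3 fell in 8, near the 26.2% of all tested genes, with a median of 92.5% left against 74.6% over all, while scaling to the same total turned their median difference from -604 to 1910 bp. Of the 39 Hox windows 15 were fully covered in control replicates 2 and 3, as were 39 of all 2235, and 5 also in 4-OHT replicates 2 and 3. At such windows the share left reads high whether or not the signal under the regions was lower. Across the Hoxa cluster H3K27me3 covered 69.0, 102.9 and 102.6 kb in control and 54.9, 99.3 and 98.3 kb after 4-OHT. The Hoxb cluster held 84.1, 123.0 and 121.2 kb in control and 62.0, 114.5 and 110.3 kb after 4-OHT. Replicates 2 and 3 kept 90.9% to 96.6% of their bases in each of the Hoxa, Hoxb, Hoxc and Hoxd clusters, and replicate 1 kept 73.7% to 81.2%.

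Other transcription factor families also kept most of their cover, and their counts stand beside the 26.2% of all tested genes that fell. By limma H3K27me3 fell in 0 of 6 Irx genes (5 at an unadjusted p under 0.05, median 85.2% left) and 0 of 6 Dlx genes (3 unadjusted), and after scaling the median difference of each family was positive. H3K27me3 fell in 3 of 8 Pax, 3 of 14 Nkx, 1 of 8 Lhx and 2 of 11 T-box genes, with medians of 90.9%, 90.1%, 91.8% and 91.9% left, and scaling turned each of these medians positive as well. It fell in 8 of 21 tested Fox genes, 3 of 13 Sox, 2 of 6 Pou and 1 of 5 Gata genes, and in 0 of 3 Cdx genes (0 at an unadjusted p under 0.05 by limma), again with positive medians after scaling. Pou3f1, a POU factor of epiblast and neural cells, stood out with 2575, 5725 and 4000 bp in control, against 925, 3700 and 1300 bp after 4-OHT (48.2% left, adjusted p = 0.00464). Its groups overlapped although every pair was lower. In control replicates 2 and 3 the windows of 2 Pax, 3 Nkx, 2 Fox, 1 Sox and 1 Cdx genes were fully covered, with the same limit as at Hox genes, and those of Irx, Dlx, Lhx, T-box, Pou and Gata genes were not. At the single TSS read for each gene, the Mef2 and Runx families had 0 covered members of 4 and 3, beside 2947 of all 22367 genes. Other starts inside these genes were not read for this count.

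Secreted signalling ligands had medians closer to the 74.6% left over all tested genes, of which 26.2% fell. H3K27me3 fell in 7 of 16 tested Wnt ligand genes (median 76.7% left), in 3 of 8 Fgf genes (66.2% left) and in 2 of 11 Bmp and Gdf genes (77.5% left), and after scaling the median difference stayed negative for Fgf and was positive for Wnt and for Bmp and Gdf. Wnt10b had 4425, 8045 and 7045 bp in control, against 1375, 7275 and 4825 bp after 4-OHT (adjusted p = 0.0155). Fgf18, a growth factor of skeletal tissues, had 425, 2475 and 1575 bp in control, against 0, 850 and 700 bp after 4-OHT (adjusted p = 0.0273). Both were lower in every pair, with overlap between the groups. Among secreted Wnt antagonists H3K27me3 fell in 2 of 6, Sfrp1 and Wif1, and the median difference stayed negative after scaling.

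Lineage lists differed in their counts. In the pluripotency list H3K27me3 fell in 3 of 5 tested genes, Sox2, Klf4 and Prdm14, with a median of 68.2% left and a median difference that stayed negative after scaling. Klf4, a reprogramming factor, had 1050, 2925 and 2325 bp in control, against 250, 1375 and 1300 bp after 4-OHT (adjusted p = 0.0162). In the mesoderm list 0 of 6 tested genes fell or rose by limma, where 26.2% and 0.134% did among all, with 1 gene, Kdr, lower at an unadjusted p under 0.05. The median difference of these mesoderm genes was 21.3 bp, whereas the bases summed over the list were 13.5, 27.1 and 30.9 kb in control and 9.83, 29.3 and 30.5 kb after 4-OHT, lower in replicates 1 and 3 and higher in replicate 2. Cdx1 and Pdgfra were higher and Cdx2 and Kdr lower in mean, none of them past the threshold.

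H3K27me3 fell in 4 of 9 neural genes and in 5 of 11 neural bHLH genes, lists that share 4 genes, beside 26.2% of all tested genes, and both medians turned positive after scaling. Of 12 cardiac regulators 2 fell, 1 of 7 endoderm genes did, and 0 of 7 blood and endothelial regulators by limma (3 at an unadjusted p under 0.05), and each of these medians was positive after scaling. Hand2, a heart and limb factor, had 7100, 10000 and 10000 bp in control, against 5925, 10000 and 10000 bp after 4-OHT. Its window was full in replicates 2 and 3 of both conditions. Of the 14 sarcomere genes, 0 had a covered promoter in at least 2 of 3 control lists, beside 2947 of all 22367 genes. The Tnni1 promoter had 75 bp in control replicate 1.

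Merged over the 6 lists, the regions formed 19499 domains, and the share of covered bases left was larger in wider domains. Domains under 1 kb kept 27.7%, 50.0% and 39.3% of their control bases in replicates 1, 2 and 3. Those of 1 to 2.5 kb kept 62.8% ± 9.13 (SD, n = 3 pairs) and those of 5 to 10 kb kept 81.8% ± 9.62. The 20 domains of 20 kb or wider kept 80.2%, 95.5% and 95.5%. The order from narrow to wide was the same in each pair. Domains of 10 kb or wider were covered over 63.5%, 98.6% and 96.7% of their span in control replicates 1, 2 and 3. In replicates 2 and 3 their share left thus reads high whether or not the signal under the regions was lower. Width was measured after merging the 6 lists, so a domain called in 1 condition alone had its width from that condition.

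**Figure D4:**
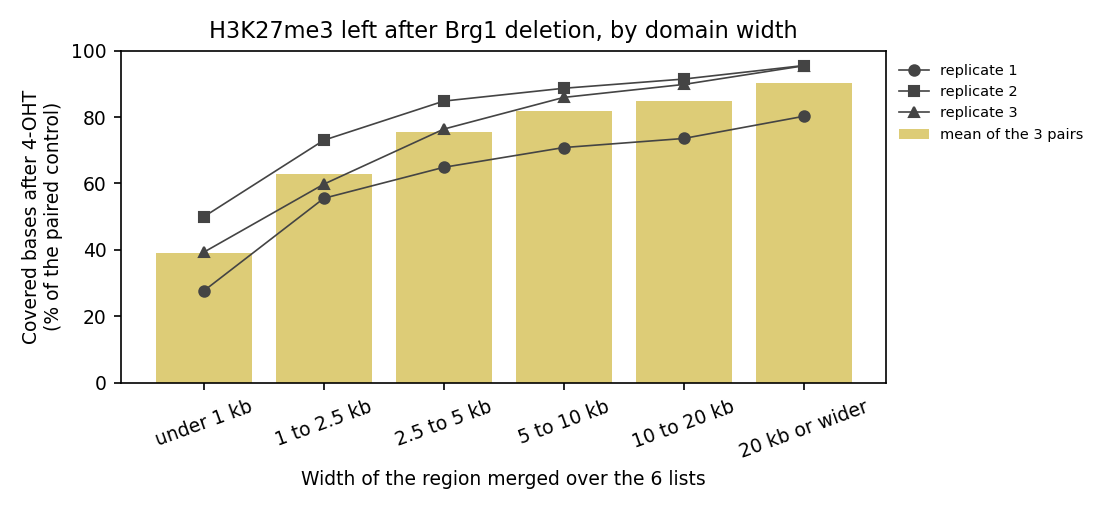
Bases covered after 4-OHT as a percentage of the paired control (y axis) in domains merged over the 6 lists, by domain width (x axis), with bars for the mean of the 3 pairs and symbols for each replicate number. The share rises from a mean of 39.0% under 1 kb to 90.4% at 20 kb or wider.

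Of the 3162 domains with a mean of at least 500 bp, H3K27me3 fell in 487 (15.4%) and rose in 3 (0.0949%) by limma. Scaled to the same total, 16 were lower and 2 higher, and at an unadjusted p under 0.05 there were 260 lower and 373 higher, so there higher domains outnumbered lower ones, against 1258 lower and 13 higher unscaled. Of the 487, 146 held a protein-coding TSS, from 929 such domains tested, and 341 lay among the 2233 without one. With no replicate block and without replicate 1, 2 or 3, limma called 0 domains in either direction, with 260, 855, 733 and 716 lower at an unadjusted p under 0.05.

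Hox clusters, Hand2 and Pax3 were among the 10 domains with most covered bases in control. The domain from Hoxa2 to Hoxa11 (chr6:52110476-52205325) held 63250, 94725 and 94525 bp in control, against 49975, 92200 and 91250 bp after 4-OHT. It kept 92.4%, and its difference of -6358 bp was the largest of all tested domains without passing the threshold (adjusted p = 0.169). The domain from Evx2 to Hoxd8 (chr2:74486051-74549450) held 41825, 63400 and 62475 bp in control, against 34250, 60500 and 58575 bp after 4-OHT. The domain from Hoxb6 to Hoxb3 (chr11:96150751-96202475) held 38800, 51725 and 50900 bp in control, against 30125, 49150 and 49475 bp after 4-OHT. The 3 Hox domains were lower in every pair and missed the threshold (adjusted p 0.130 to 0.169). The Hand2 domain (chr8:59787351-59832350) held 34825, 44200 and 43725 bp in control, against 29925, 43425 and 43125 bp after 4-OHT. It was lower in every pair, and in all 4 domains the groups overlapped. The domain 793 bp from the TSS of Nr2f1, a nuclear receptor of neural development (chr13:78311351-78338225), contains no TSS and held 22075, 26725 and 26525 bp in control, against 19025, 25350 and 24175 bp after 4-OHT. The 10 domains kept 89.9% to 94.9%, and 0 of them passed with limma (2 at an unadjusted p under 0.05).

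Beside the 15.4% of all tested domains, H3K27me3 fell in 0 of 69 domains under 1 kb by limma (6 at an unadjusted p under 0.05), in 158 of 1648 of 1 to 2.5 kb (9.59%), in 167 of 912 of 2.5 to 5 kb (18.3%), in 105 of 379 of 5 to 10 kb (27.7%), in 55 of 134 of 10 to 20 kb (41.0%) and in 2 of 20 of 20 kb or wider. The test was on bases and not on shares, so these counts do not rank the share lost. Tested domains of 10 to 20 kb had a median of 87.7% left, and those of 1 to 2.5 kb 70.2%. Of the 15892 domains under 1 kb, the others were too small to be tested, and the 69 tested had a median of 73.1% left, so they do not stand for their class. A domain 37134 bp from the TSS of Hoxc4 (chr15:102886501-102897475) held 7450, 9800 and 8550 bp in control, against 4325, 5200 and 3800 bp after 4-OHT. No value after 4-OHT reached any control value, and H3K27me3 fell to 51.6% (adjusted p = 0.00552, lower in 3 of 3 pairs). The Nkx2-9 domain (chr12:57705801-57721475), around a homeobox gene of the ventral neural tube, held 11975, 14475 and 14075 bp in control, against 8350, 10150 and 9850 bp after 4-OHT. Again the groups did not overlap, and 70.0% was left (adjusted p = 0.00552). The 3 domains in which H3K27me3 rose lay over the TSS of Dock10, 140 bp from that of Cdh11 and 548 bp from that of Nog (adjusted p 0.0294, 0.0294 and 0.0498). The Cdh11 domain passed the filter of 500 bp through the 4-OHT lists alone, and 131 of the 487 lower domains through the control lists alone.

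Lost bases came from domain edges, from gaps inside domains and from domains that were no longer called. Domains with no base left in the 4-OHT list of the same number made up 40.4%, 24.0% and 28.7% of the lost length. Outer edges made up 35.6%, 50.9% and 47.9%, and inner gaps 23.9%, 25.1% and 23.4%. In replicate 1 whole domains were the largest share, and in replicates 2 and 3 the edges were. Domains of 10 kb or wider (154 of them) broke into more pieces: a mean of 8.60, 1.71 and 2.54 regions in control and 9.56, 3.44 and 3.90 after 4-OHT. Their mean span between the outermost regions went from 15838 to 15008 bp in replicate 1, from 16305 to 15832 bp in replicate 2 and from 16204 to 15611 bp in replicate 3. The covered share of that span went from 63.5%, 98.6% and 96.7% to 50.7%, 94.0% and 91.9%, so both the span and the cover inside it were smaller in every pair.

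Promoters were also followed as present or absent. A promoter counted as covered when a region lay within 2.5 kb of the TSS. In control 2947 genes met this in at least 2 of 3 control lists. No region was left in any 4-OHT list for 165 of them (5.6%), and 1873 (63.6%) had one in all 3. The share with no region left was 1.83% when presence in all 3 control lists was asked for. In the reverse direction 12 of 2521 promoters covered after 4-OHT (0.476%) were absent from every control list. Promoters chosen as covered in control are bound to be covered less often elsewhere, and the reverse count shares that choice but is also lowered by the shorter 4-OHT lists. At equal list size the shares were 4.10% and 1.01% in reverse. Within pairs, 29.5%, 13.3% and 20.4% of control promoters were missing after 4-OHT, and 3.89%, 5.73% and 5.30% of 4-OHT promoters were missing in control. Without replicate 1 the share absent from both 4-OHT lists was 5.63%, against 0.822% in reverse. Of the 1873 that stayed covered, 1092 (58.3%) had fewer bases in all 3 pairs and 32 (1.71%) had more.

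Promoters with no region left in any 4-OHT list had little cover in control. Dact2, a modulator of Wnt and TGF-beta signalling, had 1550, 1550 and 0 bp at its promoter in control. Sertad4 had 795, 1525 and 675 bp, Dpp4, a cell-surface peptidase gene, had 775, 1300 and 75 bp, and Crip2, a LIM-domain gene, had 250, 1150 and 600 bp. Mlycd, which encodes malonyl-CoA decarboxylase, had 1050, 950 and 0 bp. All 5 were at 0 bp in the 3 lists after 4-OHT, and Dact2 and Mlycd were already at 0 in control replicate 3. For 145 of the 165 genes no base was left within 5 kb of the TSS either.

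The vanished promoters differed from those kept in all 3 lists in the other marks. Their median control cover was 183 bp, against 1908 bp for the kept ones. Suz12 regions lay at 6.06% and 5.45% of the vanished promoters in the control lists, and at 63.5% and 64.5% of the kept ones, against 6.38% and 6.42% of all genes. H3K27ac lay at 46.1% and 43.0% of the vanished and at 17.1% and 16.2% of the kept promoters, against 47.2% and 46.6% of all genes. Vanished promoters thus had Suz12 and H3K27ac about as often as genes at large. These shares are descriptions of groups that H3K27me3 itself defined.

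The 12 promoters that appeared after 4-OHT carried little cover. Rerg, a Ras-like gene, had 0, 0 and 0 bp in control, against 350, 450 and 75 bp after 4-OHT. Alpl, the alkaline phosphatase of stem cells and bone, had 0, 475 and 225 bp after 4-OHT, and Mixl1, a primitive streak homeobox gene, had 25, 0 and 25 bp. In control all 3 were at 0 bp at the promoter. Of the 12, 0 had enough bases for the window test.

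Control domains vanished by width. Of 6473 domains found in at least 2 of 3 control lists, 1025 (15.8%) overlapped no 4-OHT region and 2840 (43.9%) overlapped one in all 3 lists. The reverse held for 101 of 5044 (2%) and 3854 (76.4%). At equal list size the absent shares were 9.89% and 3.02% in reverse. Absence was 46.2% under 500 bp, 17.2% from 500 bp to 1 kb and 2.98% from 1 to 2.5 kb. It was 3 of 852 from 2.5 to 5 kb and 0 of 511 at 5 kb or wider. In the reverse direction 7.94% of 4-OHT domains under 500 bp were absent and 0 of 1 kb or wider.

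The widest domain to vanish lay at chr6:47596551-47600425, 51211 bp from the TSS of Ezh2, the catalytic subunit of PRC2. It held 3125, 3850 and 3450 bp in control and 0 bp in each 4-OHT list. The next were chr2:178375051-178377950 (209815 bp from the nearest TSS, that of Cdh26), with 2425, 825 and 1550 bp in control, and chr13:56312301-56315150 (32055 bp from that of Tifab), with 2175, 2275 and 425 bp. The next, at chr12:31766551-31769025 and 7718 bp from the TSS of Fam110c, had 2475, 250 and 0 bp in control, so it was absent from control replicate 3 already. A domain at chr12:25784826-25787100, 3869 bp from the TSS of Id2, had 925, 2150 and 50 bp in control. These domains contain no protein-coding TSS, and all were at 0 after 4-OHT.

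By genome position, covered bases under Suz12 were kept more than those elsewhere. Inside regions that both control Suz12 lists cover, 74.7%, 96.3% and 92.7% of the bases were left, and outside them 53.4%, 75.5% and 68.2%. The share inside was the higher in every pair, by a log2 difference of 0.43 ± 0.07 (SD, n = 3 pairs, exact permutation p = 0.25, the smallest possible). Tested windows with Suz12 in both control lists held 2646, 4459 and 4169 bp of H3K27me3 on average in control, against 1400, 1528 and 1328 bp in those with none. Suz12 was not told apart from domain width, and near-full cover reads as a high share left, as in wide domains. Within 1 kb of a TSS 73.0% ± 15.7 was left, at 5 to 10 kb 73.4% ± 12.5, and beyond 50 kb 62.7% ± 14.5 (SD, n = 3 pairs). The log2 difference between the nearest and the farthest class was 0.22 ± 0.03, positive in every pair (exact p = 0.25), and that between the nearest class and 5 to 10 kb was -0.02 ± 0.08, with mixed signs (exact p = 0.75). Gene bodies (72.2%) and the rest (70.3%) were close. CpG-rich bins of at least 60 per kb kept 51.9%, 90.1% and 81.6%, and bins under 10 per kb kept 57.6%, 71.2% and 67.3%. There replicate 1 had the opposite order from replicates 2 and 3 (mean log2 difference 0.16 ± 0.27, exact p = 0.5).

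The X chromosome, singled out after its values were seen, had the lowest share left of 20 chromosomes in each pair. It held 0.0574, 0.0623 and 0.0461 Mb in control and 0.0176, 0.0299 and 0.0146 Mb after 4-OHT, so that 30.6%, 47.9% and 31.7% was left. The autosomes had means from 64.7% (chromosome 17) to 76.0% (chromosome 1). Of 17 X-linked windows H3K27me3 fell in 9, and 15 were lower in all pairs, with a median of 43.0% left against 74.7% on autosomes. On autosomes 26.0% of the windows fell and 68.7% were lower in all pairs, and after scaling 1 of the 17 X-linked windows, that of Esx1, was still called lower. Of the 17, 7 passed the filter of 500 bp through the control lists alone, among them 3 of the 9 that fell, so the counts and the median on the X support no larger loss. Esx1, a homeobox gene of the placenta, had 3375, 4175 and 2825 bp in control, against 1100, 1450 and 225 bp after 4-OHT. Sox3, a neural progenitor factor, had 3075, 4225 and 850 bp in control, against 575, 625 and 50 bp after 4-OHT. The groups did not overlap at Esx1 and Sox3, and both genes were lower in every pair, but Sox3 is among the 7.

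Covered length of the other marks was compared over the same treatment. For Suz12 the log2 ratio of 4-OHT over control was -0.04 in replicate 1 and 0.23 in replicate 2, against -0.82, -0.29 and -0.40 for H3K27me3. Every H3K27me3 ratio was below both Suz12 ratios, and the means differed by -0.60 (two-sided exact permutation p = 0.1, the smallest that 3 against 2 allows). The H3K27ac ratios were 0.03 and -0.24, above all 3 of H3K27me3, and the means differed by -0.40 (exact permutation p = 0.2). Without replicate 1 the difference from H3K27ac was -0.11.

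At the 2235 tested windows the change in H3K27me3 correlated with the change in Suz12 (r = 0.24) and with that in H3K27ac (r = -0.24). These are descriptions across genes, which are not independent replicates, and the H3K27me3 and other lists come from separate ChIPs. The 586 windows in which H3K27me3 fell had on average 291 and 218 bp of H3K27ac within 5 kb of the TSS in the control lists and 403 and 311 bp in the 4-OHT lists. Windows not called had 235 and 250 bp in control, against 252 and 230 bp after 4-OHT. Windows with Suz12 in both control lists (1315) had 26.4% falling and those with none (660) 23.8%, beside 26.2% of all tested, although the median share left was 79.6% and 62.1%.

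Promoter sequences are shown for 4 of the genes the results turn on: Irx1 and Nkx2-5 as the genes the study examined, Sox2 as a loss, and Sertad4 as a promoter in all 3 control lists and no 4-OHT list. Each runs 5′ to 3′ on the gene's strand from 250 bases before the TSS to 50 bases from it on, in the mm9 build (NCBIM37). Capitals mark the dinucleotide CG, which reads the same on both strands. It occurs in 95.1% of all 22367 promoters of this length, with a median of 11. Promoters with H3K27me3 in all 3 lists after 4-OHT had a median of 20, and the vanished ones 17. Irx1 lies at chr13:72101122-72101421 on the minus strand with 35 CG, Nkx2-5 at chr17:26978461-26978760 on the minus strand with 9, and Sox2 at chr3:34548677-34548976 on the plus strand with 25. Sertad4 lies at chr1:194681897-194682196 on the minus strand with 34.
Irx1: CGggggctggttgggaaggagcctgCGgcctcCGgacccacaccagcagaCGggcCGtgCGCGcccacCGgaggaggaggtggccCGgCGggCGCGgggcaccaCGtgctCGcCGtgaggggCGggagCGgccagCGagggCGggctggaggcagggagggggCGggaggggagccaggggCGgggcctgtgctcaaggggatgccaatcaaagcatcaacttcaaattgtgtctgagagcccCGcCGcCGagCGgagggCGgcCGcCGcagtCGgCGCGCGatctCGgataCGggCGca
Nkx2-5: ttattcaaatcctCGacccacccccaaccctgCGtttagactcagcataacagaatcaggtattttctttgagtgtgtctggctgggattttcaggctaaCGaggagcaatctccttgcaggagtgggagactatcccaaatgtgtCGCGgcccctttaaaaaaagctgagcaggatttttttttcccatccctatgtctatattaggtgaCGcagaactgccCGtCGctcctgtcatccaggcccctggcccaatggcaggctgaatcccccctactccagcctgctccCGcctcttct
Sox2: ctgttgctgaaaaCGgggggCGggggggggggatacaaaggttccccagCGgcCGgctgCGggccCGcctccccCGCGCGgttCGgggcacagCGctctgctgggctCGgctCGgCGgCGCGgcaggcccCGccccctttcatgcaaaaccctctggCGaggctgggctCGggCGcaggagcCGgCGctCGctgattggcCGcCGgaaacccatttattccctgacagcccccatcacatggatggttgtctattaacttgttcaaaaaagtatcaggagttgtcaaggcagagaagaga
Sertad4: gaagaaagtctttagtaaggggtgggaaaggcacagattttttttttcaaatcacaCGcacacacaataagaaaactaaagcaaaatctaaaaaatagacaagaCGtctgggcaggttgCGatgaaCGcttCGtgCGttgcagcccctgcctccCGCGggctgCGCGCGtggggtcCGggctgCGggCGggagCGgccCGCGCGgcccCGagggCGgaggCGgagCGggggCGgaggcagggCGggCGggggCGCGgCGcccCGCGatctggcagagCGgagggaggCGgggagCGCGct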

How the data were processed

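The 6 H3K27me3 lists, and the Suz12, H3K27ac and FLAG lists beside them, hold other values (start and end positions only), deposited by the authors as regions enriched over input under a Poisson model at p = 1e-12 for H3K27me3. Per the submitters' processing notes reads were aligned with Bowtie to mm9. Read depth is not given. Region edges are multiples of 25 bp. Genes and TSSs came from the GENCODE annotation of that build, with a single TSS per gene, the outermost start of the gene record. An alternative for the vanished promoters took any annotated transcript start of the gene.

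Covered bases per window, domain and stratum were counted with Python 3.11.15, NumPy 2.4.6 and SciPy 1.17.1, and tested with limma 3.58.1 in R 4.3.3 (trend, replicate number as a block, Benjamini-Hochberg adjusted p under 0.05). Features needed a mean of at least 500 bp over the 6 lists. Windows spanned 5 kb on each side of the TSS. Totals were compared by exact permutation tests, two-sided. The smallest p is 0.25 for 3 pairs and 0.1 for 3 against 3.

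The lists were paired by replicate number. Over the 2235 tested windows, deviations from the condition mean correlated between same-numbered lists with r = 0.90, 0.77 and 0.77, each higher than with another number. Replicates 2 and 3 were less distinct: control 2 had r = 0.59 with 4-OHT 3, and control 3 had r = 0.63 with 4-OHT 2. Genes and domains were named from: Irx1, Nkx2-5 and the genes the study names as up or down, the 10 windows losing and the 10 gaining most bases among those moving alike in all 3 pairs, the 5 vanished promoters with most control cover, the 10 domains with most control cover, the 5 domains losing most, and the 5 widest that vanished. Some members are not reported here. Gene lists covered the families, ligands, lineages and chromatin complexes described. Members and lists were chosen with earlier results of these data known. The alternatives changed the pairing, region width, joining, list size, scaling, scale, filter, window, presence rule and replicates. The counting was checked on made-up intervals and the exact tests against SciPy. The limma fit was checked on made-up window values, without a shift common to all windows. Inputs were not analysed here.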

Additional observations from a re-analysis of the deposited data

How the results depend on the processing

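Covered length and number of regions kept their direction under all 7 and 6 alternatives, with log2 ratios of -0.34 to -0.61 and -0.28 to -0.55. The differences from Suz12 and H3K27ac kept theirs under 3 each. The limma counts were less stable. Gene windows numbered 586 lower and 3 higher. Regions of at least 500 bp gave 34 and 0 (613 and 7 at an unadjusted p under 0.05), joining within 1 kb gave 0 and 0 (644 and 4), and equal list size 359 and 4. Scaling gave 20 and 1 (234 and 280), the log2 scale 42 and 0 (743 and 5), and no filter 1 and 0 (1030 and 11). Windows of 2.5 kb gave 125 and 1, and of 10 kb 739 and 5. With no replicate block both counts were 0 (209 and 2). Leaving out a replicate gave 0 to 33 lower and 0 to 0 higher.

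Domains numbered 487 lower and 3 higher. The stricter width gave 125 and 1, joining 41 and 0 (870 and 8 unadjusted), scaling 16 and 2 (260 and 373), the log2 scale 12 and 0 (934 and 10), no filter 1289 and 21. With no replicate block both were 0 (260 and 2), and leaving out a replicate gave 0 to 0 in both directions (716 to 855 lower unadjusted).

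The share of control promoters that vanished was 5.14% to 6.77% under 7 of 12 alternatives. It was 1.83% with presence in all 3 control lists, 4.10% at equal list size, 8.11% with the stricter width, 19.0% with presence in at least 1 control list and 16.9% with absence from at least 2 of 3 4-OHT lists. The reverse shares were 0.0530%, 1.01%, 0.527%, 3.73% and 2.82%. For domains the share was 9.33% after joining, 9.89% at equal list size, 4.80% with presence in all 3 control lists, 57.7% with presence in at least 1, 34.4% with absence from at least 2 and 40.6% where cover of at least 50% counts as presence. The reverse shares were 1.07%, 3.02%, 0.298%, 20.7%, 7.32% and 6.05%. The cause of these shifts was not tested. Depth is unknown, so a lower enrichment and a shallower library cannot be told apart.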

Other observations

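Among genes of the chromatin complexes, 1 of 11 PRC2, 6 of 18 PRC1, 2 of 19 BAF and 0 of 3 H3K27 demethylase genes were covered in control, beside 2947 of 22367 of all genes. The PRC2 gene was Phf19, a PRC2 cofactor, with 850, 1875 and 1975 bp in control, against 50, 1300 and 1125 bp after 4-OHT (adjusted p = 0.0371), lower in every pair, in overlapping groups. Ezh2, Eed and Suz12 had 0 bp in every list within 5 kb of the TSS read. Among 5 tested PRC1 genes, beside 26.2% of all tested genes, H3K27me3 fell in Cbx8, a chromobox gene, with 3132, 8425 and 7525 bp in control, against 1682, 7150 and 6950 bp after 4-OHT (adjusted p = 0.0431), and after scaling the median difference of the list was positive. Of the BAF genes Smarcd3 and Smarca2 were tested and 0 passed with limma (adjusted p 0.148 and 0.0806), with 1 at an unadjusted p under 0.05, beside 1012 of all 2235. The 3 H3K27 demethylase genes had 0 bp in every list within 5 kb of the TSS read. Of 76 ribosomal protein genes, which are active in most cells, 0 were covered in control.

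Regions found in at least 2 of 3 FLAG lists make up 0.0137% of the genome (0.364 Mb), and they held 0.0164%, 0.0298% and 0.0267% of the H3K27me3 bases in control and 0.0237%, 0.0331% and 0.0334% after 4-OHT. FLAG replicate 3 had 192 regions, against 8021 and 8257 in the others.

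Of the 14 sarcomere genes, Tnnt2, Myl4 and Ttn had H3K27ac at the promoter in both control lists, and all 3 had 0 bp of H3K27me3 there in every list. H3K27ac covered 1050 and 1450 bp at Tnnt2 in control, against 0 and 0 bp after 4-OHT, and 25 and 575 bp at Ttn, against 0 and 0 bp. At Myl4 it covered 1525 and 1550 bp in control, against 1925 and 2025 bp after 4-OHT. The lists were lower at Tnnt2 and Ttn and higher at Myl4, in genes chosen for H3K27ac in control. Of the others, Tnni3 had 55 and 0 bp in control, against 80 and 30 bp after 4-OHT, Tnnc1 had 0 and 0 bp, against 75 and 0 bp, and Myl7 had 0 and 350 bp, against 0 and 0 bp.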
